A study of Mus musculus with 8 samples.

Results

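The genes described here load peptides onto major histocompatibility complex (MHC) class I molecules. They are Tap1, Tap2, Tapbp, Tapbpl, Erap1 and Nlrc5, chosen by name for this role and matched by symbol, 6 of the 19805 genes found in the study's 2 count tables. All 6 stood in both tables and all 6 passed the filter on low counts. A class I molecule shows short peptides from inside the cell to CD8 T cells. The proteasome cuts proteins into peptides, the transporter TAP carries them into the endoplasmic reticulum, the aminopeptidase ERAP1 trims them there, and tapasin and its relative TAPBPR help the class I chain to keep those that bind well. NLRC5 is a transcriptional coactivator of class I genes, and interferon gamma is a known inducer of most of these genes.

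Bulk RNA sequencing was done on primary cells of wild-type mice, ILC2s of the lung and CD8 T cells of the spleen. ILC2s (group 2 innate lymphoid cells) are lymphocytes of tissues that make type 2 cytokines and carry no rearranged antigen receptor. The 4 groups of 2 libraries each were ILC2s co-cultured with CD8 T cells, ILC2s cultured alone, CD8 T cells co-cultured with ILC2s, and CD8 T cells cultured alone. Co-culture ran for 3 days with 5 CD8 T cells for each ILC2, after which the groups were sorted by flow cytometry. The labels name no other agent, stimulus or culture medium. Whether replicates were separate cultures or animals is not said, and the p-values therefore cover the spread of these libraries alone, which may be technical. Library totals ran from 48072595 to 67076905 reads.

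Cell type markers were checked first, because the ILC2 libraries labelled alone went against their label. The 7 CD8 T cell markers listed, among them Cd8a and Cd3e, summed to 113 and 137 CPM (counts scaled to the same total in every library) in ILC2s labelled co-cultured, against 939 and 910 CPM in ILC2s labelled alone. The 7 of 9 stroma markers measured in the ILC2 table summed to 114 and 118 CPM labelled co-cultured, against 6720 and 7257 CPM labelled alone. Of these 7, 6 fell, while Lum rose to 108 CPM on average labelled co-cultured, against 66.3 CPM labelled alone, and made up most of the stroma sum in ILC2s labelled co-cultured. The 5 of 13 macrophage markers measured there summed to 17 and 21.1 CPM labelled co-cultured, against 313 and 319 CPM labelled alone. The defining macrophage genes C1qa, Marco and Mertk were not among the genes of that table. A gene with no read in any 1 library is left out of it, so this absence does not give their level in ILC2s labelled alone. The 10 ILC2 markers summed to 8252 and 7953 CPM labelled co-cultured, against 3489 and 3468 CPM labelled alone. They were Gata3, Il1rl1, Il5, Il13, Areg, Il17rb, Rora, Arg1, Hs3st1 and Calca, of which 8 rose, 1 fell and 1 did not pass. In CD8 T cells the CD8 T cell markers summed to 4594 and 4557 CPM labelled co-cultured, against 3343 and 3458 CPM labelled alone. The 3 of 9 stroma markers measured in those libraries summed to at most 3.28 CPM, over fewer genes than in ILC2s. Other lists moved between the ILC2 groups as well. The 3 of 6 NK cell markers measured there summed to 1.34 and 1.64 CPM labelled co-cultured, against 26.1 and 24.7 CPM labelled alone. The 6 of 8 endothelium and epithelium markers measured there summed to 245 and 233 CPM labelled co-cultured, against 346 and 344 CPM labelled alone. Of these 6, 5 fell, among them Krt8, to 0.34 CPM on average labelled co-cultured, against 90.1 CPM labelled alone. Pecam1 rose to 160 CPM on average labelled co-cultured, against 81.3 CPM labelled alone, and made up most of the co-cultured sum. Of 4 CD4 T cell markers 3 fell, and of 8 genes of handling stress 6 fell and 2 rose. These marker levels moved with every difference between the ILC2 groups given below, and their part in those differences was not tested. In bulk libraries, fewer cells of a type and less RNA per cell cannot be told apart. Groups are therefore called by their labels throughout.

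The start regions of Tap1, Tapbp and Erap1 are shown, the 3 of the 6 genes matched in the RefSeq windows used. Tap1 and Tapbp rose in both cell types, and the response of Erap1 differed between them. Each region is the RefSeq window of GRCm38.p6 from 250 bases before a transcript start to 50 bases after it. For Tap1 and Tapbp that start is the first base of the gene, and for Erap1 it lies 280 bases inside it. All 3 genes lie on the plus strand, Tap1 at chr17:34187306-34187605, Tapbp at chr17:33919228-33919527 and Erap1 at chr13:74639603-74639902. Capitals mark a CCAAT box (CCAAT, or ATTGG on the other strand) or the core of an interferon-stimulated response element (ISRE), here GAAA repeated after any 2 bases, or TTTC repeated in the same way on the other strand.
Tap1: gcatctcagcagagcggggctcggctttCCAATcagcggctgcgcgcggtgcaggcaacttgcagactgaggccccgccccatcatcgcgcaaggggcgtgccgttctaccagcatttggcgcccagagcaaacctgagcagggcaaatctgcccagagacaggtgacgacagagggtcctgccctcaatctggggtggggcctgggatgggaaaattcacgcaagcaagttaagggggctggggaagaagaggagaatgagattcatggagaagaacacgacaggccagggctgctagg
Tapbp: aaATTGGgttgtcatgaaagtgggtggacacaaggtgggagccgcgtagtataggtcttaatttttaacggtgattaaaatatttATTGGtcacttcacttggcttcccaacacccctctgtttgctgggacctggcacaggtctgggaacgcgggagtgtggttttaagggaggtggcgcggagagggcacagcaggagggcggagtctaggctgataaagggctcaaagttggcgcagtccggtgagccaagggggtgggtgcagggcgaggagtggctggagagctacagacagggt
Erap1: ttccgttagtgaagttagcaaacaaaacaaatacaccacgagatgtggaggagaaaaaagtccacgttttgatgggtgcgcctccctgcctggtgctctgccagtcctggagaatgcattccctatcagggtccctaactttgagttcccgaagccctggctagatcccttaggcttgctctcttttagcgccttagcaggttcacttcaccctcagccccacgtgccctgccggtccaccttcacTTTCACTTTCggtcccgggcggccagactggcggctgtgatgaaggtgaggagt
The Tap1 window held 1 CCAAT box, the Tapbp window 2, and the Erap1 window 1 match to the ISRE core, which spans the start used. Of 32851 mouse windows of the same length, 37.4% held a CCAAT box and 3.44% an ISRE core on either strand. The interferon gamma-activated site TTCNNNGAA, which 8.30% of windows held, was not among the letters of these 3 windows. These are matches of letters and not evidence of binding. Start regions of Tap2, Tapbpl and Nlrc5 were not analysed here.

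Transporter and tapasin transcripts were higher in co-culture in both cell types. The responses of Tapbpl and Erap1 differed between the cell types, and Nlrc5 passed in neither. In ILC2s labelled co-cultured, 3 of the 6 genes rose (Tap1, Tap2 and Tapbp), 1 fell (Tapbpl) and 2 did not pass (Erap1 and Nlrc5), although scaling to the ILC2 markers turned the 3 rises downward. For comparison, 66.3% of the 16739 genes tested in ILC2s passed the threshold of an edgeR adjusted p under 0.05, 31.8% upward and 34.4% downward. Co-cultured CD8 T cells showed a rise of 5 of the 6 and a fall of 0, and only Nlrc5 did not pass. There 60.9% of the 15948 genes tested passed, 30.2% upward and 30.7% downward. The 6 genes had a median log2 change of 0.24 in ILC2s and 0.35 in CD8 T cells, beside -0.01 over all genes tested in either cell type. With so many genes called, a call alone says little about a gene, and the sizes below carry more.

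**Figure D1:**
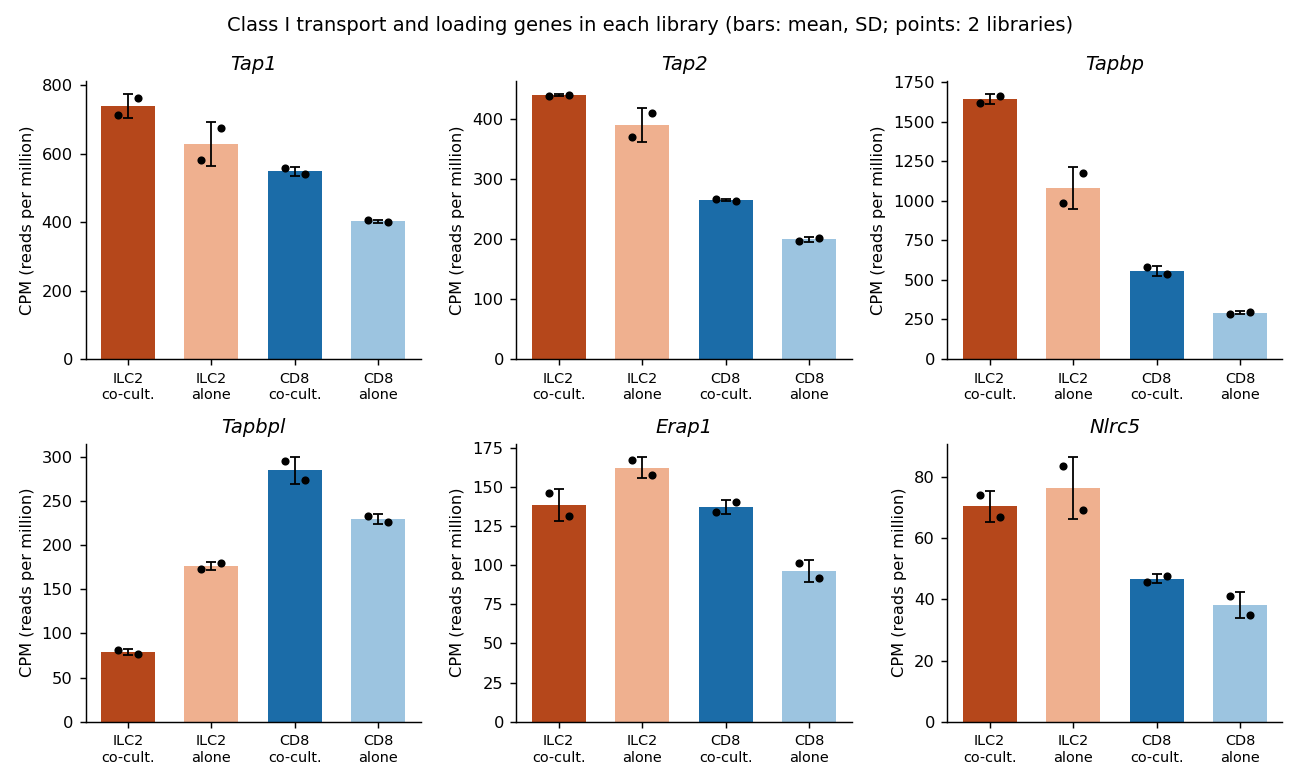
Level of each of the 6 genes in CPM (linear axis from 0), with the ILC2 groups left of the CD8 T cell groups and co-cultured left of alone. Bars are means of 2 libraries with their SD and points are the libraries. Tapbp stood at 1641 CPM in ILC2s labelled co-cultured and Tapbpl at 79.0 CPM, the highest Tapbp and the lowest Tapbpl level of the 4 groups.

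Tap1 and Tap2 encode the 2 chains of the TAP transporter, and lie close together on chromosome 17 (Tap1 at 34187556 to 34197225, Tap2 at 34204479 to 34216321, GRCm38.p6). Tap1 stood at 714 and 764 CPM in ILC2s labelled co-cultured, against 583 and 675 CPM in ILC2s labelled alone. The groups did not overlap, as for 5 of the 6 genes in ILC2s and all 6 in CD8 T cells, beside 83.4% and 81.2% of all genes tested. Tap1 rose by 0.45 on the log2 scale (SE 0.118, edgeR adjusted p = 0.0059). The CD8 T cell libraries had Tap1 at 557 and 540 CPM labelled co-cultured, against 405 and 399 CPM labelled alone, which is 0.37 on the log2 scale (SE 0.066, edgeR adjusted p = 3.6e-04). Tap2 moved by a like amount, with 439 and 441 CPM in ILC2s labelled co-cultured, against 371 and 411 CPM in those labelled alone (log2 change 0.38, SE 0.116, edgeR adjusted p = 0.012). Tap2 in CD8 T cells stood at 267 and 264 CPM labelled co-cultured, against 197 and 203 CPM labelled alone (log2 change 0.33, SE 0.068, edgeR adjusted p = 9.6e-04). Neither gene overlapped between groups in either cell type. The difference between the ILC2 and the CD8 T cell response, tested as an interaction over all 8 libraries, was -0.08 for Tap1 (SE 0.134, edgeR adjusted p = 0.63) and -0.11 for Tap2 (SE 0.130, edgeR adjusted p = 0.51), and neither passed. TMM factors for that test come from all 8 libraries, so its values are not exactly the ILC2 change minus the CD8 T cell change of the separate fits.

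The changes in ILC2s rest on how the libraries are scaled. CPM are scaled to the library total, whereas the fits use TMM factors, which estimate the scale from genes that move little. With library totals in place of TMM the median change of all genes in ILC2s became -0.22, and Tap1 (log2 change 0.23, edgeR adjusted p = 0.081) and Tap2 (0.17, edgeR adjusted p = 0.17) no longer passed. Over the 13 alternatives the adjusted p ran from 1.0e-05 to 0.081 for Tap1 and from 3.1e-06 to 0.17 for Tap2, the lowest of each under scaling to the ILC2 markers, where the direction turned. Tap2 also missed the threshold without ILC2 alone replicate 1 (adjusted p = 0.080) and without ILC2 co-cultured replicate 1 (adjusted p = 0.054). Scaling to the summed ILC2 markers moved the median of all genes to -1.44 and turned Tap1, Tap2 and Tapbp downward (-0.99, -1.05 and -0.62). That scaling holds the marker sum constant, so a rise of the markers within the cells would also lower every other gene. Whether the markers rose within the cells was not tested. The rises given for ILC2s under TMM are thus relative to most other genes. In CD8 T cells, scaling to the CD8 T cell markers moved the median of all genes to -0.35, and Tapbp alone of the 6 then passed.

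**Figure D2:**
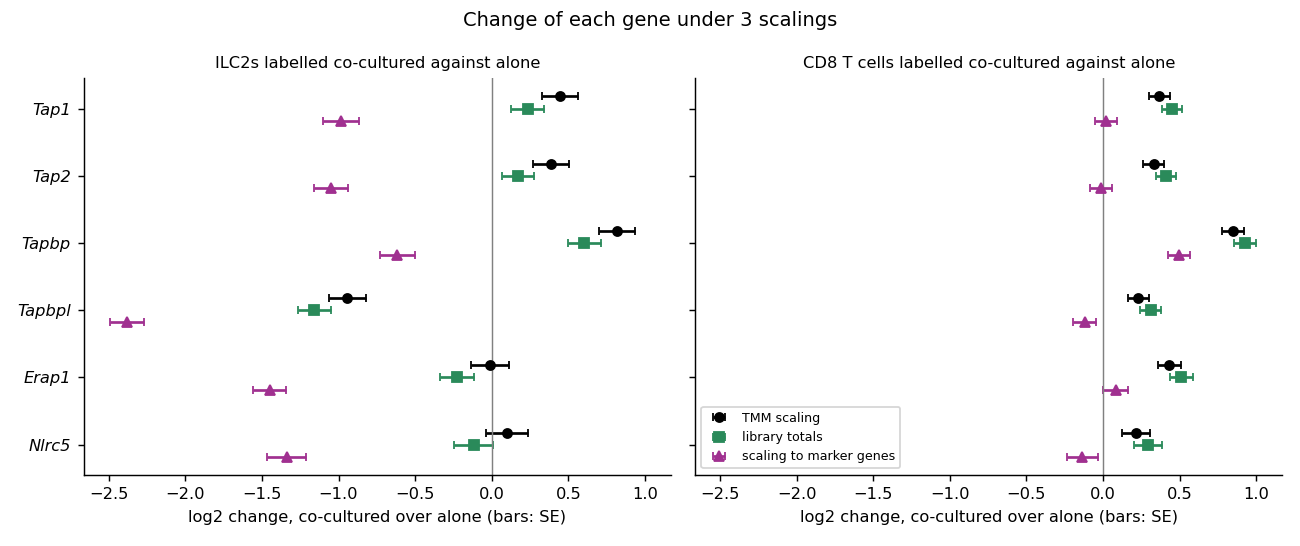
Log2 change (co-cultured over alone) of each gene with its SE, in ILC2s on the left and CD8 T cells on the right, under TMM scaling (circles), library totals (squares) and scaling to the cell type's marker genes (triangles). Tapbpl lay below 0 in ILC2s under all 3 scalings, and Tapbp lay above 0 in CD8 T cells under all 3.

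Tapbp and Tapbpl encode the peptide editors, tapasin, which bridges the class I chain to TAP, and TAPBPR, a tapasin relative that works outside that complex. Tapbp, on chromosome 17 at 33919478 to 33929290, stood at 1619 and 1663 CPM in ILC2s labelled co-cultured, against 988 and 1173 CPM in ILC2s labelled alone. Tapbp in CD8 T cells stood at 579 and 536 CPM labelled co-cultured, against 287 and 300 CPM labelled alone. Tapbp had the largest rise of the 6 genes in each cell type, 0.82 in ILC2s (SE 0.119, edgeR adjusted p = 8.86e-05) and 0.85 in CD8 T cells (SE 0.072, edgeR adjusted p = 5.15e-07), with no overlap between groups. The 2 responses did not pass the test of their difference (-0.19, SE 0.141, edgeR adjusted p = 0.275).

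Tapbpl moved in opposite directions in the 2 cell types. On chromosome 6 at 125223927 to 125231860, it stood at 81.2 and 76.8 CPM in ILC2s labelled co-cultured, against 173 and 180 CPM in ILC2s labelled alone. In CD8 T cells it stood at 295 and 274 CPM labelled co-cultured, against 233 and 226 CPM labelled alone. Both ILC2 libraries labelled co-cultured were therefore below all 6 other libraries, and both CD8 T cell libraries labelled co-cultured above them. Tapbpl fell in ILC2s (log2 change -0.94, SE 0.121, edgeR adjusted p = 3.1e-05) and rose in CD8 T cells (0.23, SE 0.070, edgeR adjusted p = 0.012). The difference between the responses was -1.33 (SE 0.132, edgeR adjusted p = 4.4e-07), a call kept in all 15 alternatives, and the fall in ILC2s was kept in all 13. The rise in CD8 T cells was lost without CD8 co-cultured replicate 1 (edgeR adjusted p = 0.14, range over 13 alternatives 0.0019 to 0.17) and turned to -0.12 under scaling to the CD8 T cell markers.

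Since a ratio of 2 genes within a library does not depend on library scaling, the pairs were also compared as reads per kb of exon, a choice made after the values were seen. Tapbp had 12.9 and 14.0 times the reads per kb of Tapbpl in ILC2s labelled co-cultured, against 3.70 and 4.23 times in ILC2s labelled alone. The ratio in CD8 T cells was 1.27 and 1.27 labelled co-cultured, against 0.80 and 0.86 labelled alone. In those labelled alone Tapbpl thus had more reads per kb, but Tapbp had more reads (1.23 and 1.33 times those of Tapbpl). The order there rests on exon lengths merged over all annotated transcripts, which may differ from those expressed. The Tap1 to Tap2 ratio varied little with co-culture, at 1.16 ± 0.050 in ILC2s labelled co-cultured, against 1.11 ± 0.035 in ILC2s labelled alone, and at 1.43 ± 0.020 in CD8 T cells labelled co-cultured, against 1.39 ± 0.044 in CD8 T cells labelled alone (SD, n = 2 each). The co-cultured and alone ranges of that ratio overlapped in both cell types. With 2 libraries a group no test was run on the ratios.

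**Figure D3:**
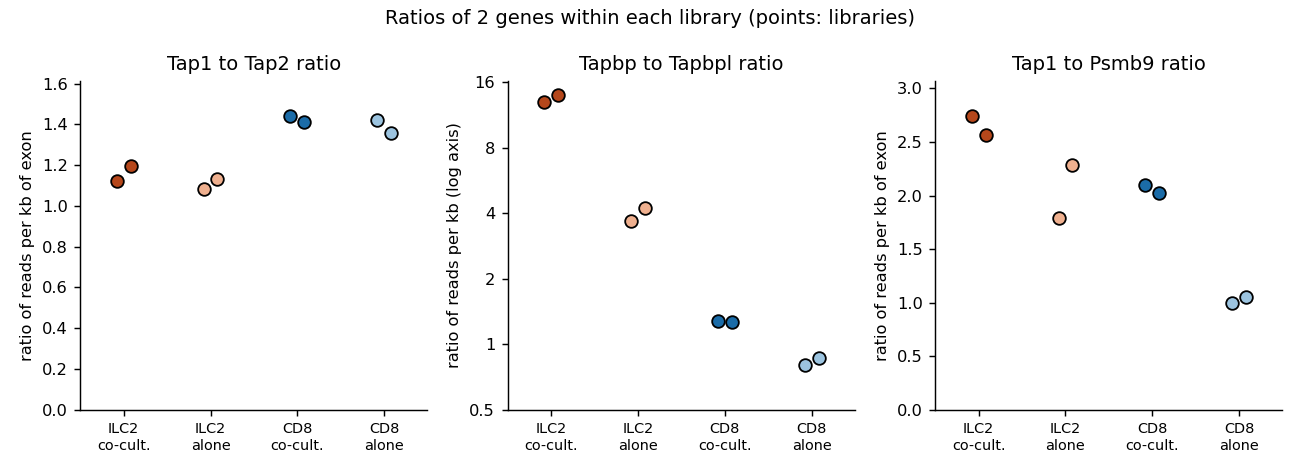
Ratio of reads per kb of exon between 2 genes in each library (points), for Tap1 to Tap2, Tapbp to Tapbpl (log axis) and Tap1 to Psmb9, with co-cultured left of alone. The Tapbp to Tapbpl ratio was 12.9 and 14.0 in ILC2s labelled co-cultured and between 0.80 and 4.23 in the other 6 libraries.

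Erap1 encodes the aminopeptidase that trims peptides in the endoplasmic reticulum, and lies on chromosome 13 at 74639573 to 74693205. It stood at 146 and 131 CPM in ILC2s labelled co-cultured, against 167 and 158 CPM in ILC2s labelled alone. These CPM did not overlap, but under TMM scaling the log2 change was -0.01 (SE 0.124, edgeR adjusted p = 0.945), and its sign varied with the scaling. Under scaling to the ILC2 markers Erap1 was called lower in ILC2s (-1.45, edgeR adjusted p = 2.1e-07). The CD8 T cell libraries had Erap1 at 134 and 140 CPM labelled co-cultured, against 101 and 91.5 CPM labelled alone, and the gene rose by 0.43 on the log2 scale (SE 0.075, edgeR adjusted p = 2.5e-04). The difference between the responses was -0.60 (SE 0.139, edgeR adjusted p = 0.0018) and passed in all 15 alternatives, with adjusted p from 1.5e-04 to 0.013.

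Nlrc5 lies on chromosome 8 at 94434335 to 94527272 and had the lowest level per kb of exon of the 6 genes in every group. It stood at 74.0 and 66.8 CPM in ILC2s labelled co-cultured, against 83.6 and 69.2 CPM in ILC2s labelled alone, and these groups overlapped (log2 change 0.10, SE 0.137, edgeR adjusted p = 0.54). Nlrc5 in CD8 T cells stood at 45.7 and 47.7 CPM labelled co-cultured, against 41.2 and 35.04 CPM labelled alone (log2 change 0.22, SE 0.090, edgeR adjusted p = 0.054). The CD8 T cell value passed without CD8 alone replicate 1 (edgeR adjusted p = 0.00999) and with library totals, in a range of 0.00999 to 0.36 over 13 alternatives. In ILC2s its sign varied with the scaling (-0.12 with library totals), and it was called lower under scaling to the ILC2 markers (-1.34, edgeR adjusted p = 1.3e-06).

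Of the 6 genes, 0 had a greater and 2 a smaller response in ILC2s than in CD8 T cells, beside 21.0% and 32.6%, or 53.6% in either direction, of the 15532 genes tested for that difference. Their median difference was -0.23, beside -0.12 over all genes. The ILC2 response to co-culture and the CD8 T cell response share no library, but the interaction uses both.

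Levels of all but Tapbpl were higher in ILC2s than in CD8 T cells when both were labelled alone. The log2 difference was 1.91 for Tapbp (SE 0.103, edgeR adjusted p = 1.25e-10), 1.03 for Nlrc5, 1.00 for Tap2, 0.78 for Erap1 and 0.68 for Tap1, and -0.35 for Tapbpl (SE 0.093, edgeR adjusted p = 0.0039). Thus 5 of 6 were higher and 1 lower, beside 32.8% and 30.4% (63.2% in either direction) of all genes tested. Labelled co-cultured, 4 were higher and 1 lower, beside 32.9% and 36.5% (69.4% in either direction). Tapbp then differed by 1.72 and Tapbpl by -1.68 (SE 0.096, edgeR adjusted p = 1.9e-10), while Erap1 did not pass (0.18, edgeR adjusted p = 0.11). Erap1 groups labelled co-cultured overlapped between the cell types, and Nlrc5 groups overlapped within ILC2s. Other neighbours in the order of the 4 group levels did not overlap. For Tap1, Tap2 and Erap1, however, the gap between the ILC2 groups was smaller than the spread of the 2 libraries within 1 of those groups. The same held for Nlrc5 between the CD8 T cell groups, and for Tap1 between ILC2s labelled alone and CD8 T cells labelled co-cultured. Levels set across the 2 tables assume that the authors counted both alike, which the sources used here do not give. Markers of other cells also differed between ILC2s and CD8 T cells labelled alone. The median log2 difference was 6.13 for the 3 stroma markers tested and 5.14 for the 3 macrophage markers tested, all higher in ILC2s. Their part in these level differences was not tested.

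Per kb of exon, Tapbp was the most abundant of the 6 genes in ILC2s, at 452 ± 8.62 CPM per kb labelled co-cultured, against 298 ± 35.9 CPM per kb labelled alone. In CD8 T cells labelled co-cultured Tapbp also led, at 154 ± 8.37 CPM per kb. In those labelled alone Tapbpl led, at 97.5 ± 2.29 CPM per kb, over Tapbp at 80.9 ± 2.41 CPM per kb (SD, n = 2 each). Without division by exon length Tap1 led in CD8 T cells labelled alone, at 402 CPM, over Tapbp at 294 CPM and Tapbpl at 229 CPM. Tap1 lay between 73.5 and 135 CPM per kb and Tap2 between 52.8 and 116 CPM per kb over the 4 groups. Erap1, at 13.2 to 22.3 CPM per kb, and Nlrc5, at 4.49 to 8.99 CPM per kb, were lowest in each group.

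Proteasome genes, which act before transport, fell or did not pass. Of 6 genes of the immunoproteasome and its activator, 0 rose, 4 fell and 2 did not pass in ILC2s, and 0 rose and 6 fell in CD8 T cells, with medians of -0.77 in both. Psmb8 and Psmb9 encode catalytic subunits of the interferon-induced proteasome. Psmb9 in CD8 T cells stood at 178 CPM in both libraries labelled co-cultured, against 272 and 254 CPM labelled alone, and it fell by 0.64 on the log2 scale (SE 0.069, edgeR adjusted p = 4.1e-06). Psmb8 fell there too, by 0.73 (SE 0.069, edgeR adjusted p = 1.3e-06). In ILC2s neither passed, with log2 changes of 0.06 for Psmb9 (SE 0.117, edgeR adjusted p = 0.66) and -0.10 for Psmb8 (SE 0.116, edgeR adjusted p = 0.47). The sign for Psmb9 turned with library totals (-0.15). Psmb8 was called lower with library totals, in the fit of all 8 libraries and under scaling to the ILC2 markers (-1.53). Psmb9 was also called lower under scaling to the ILC2 markers (-1.37). The genes of this list with the largest falls were Psmb10, a further catalytic subunit, in ILC2s (-1.82) and Psme2, a subunit of the proteasome activator, in CD8 T cells (-1.18). Of the 5 constitutive proteasome genes, 4 fell in ILC2s and 5 in CD8 T cells, led by Psmb7 in ILC2s (-1.80) and Psmb5 in CD8 T cells (-1.31).

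**Figure D4:**
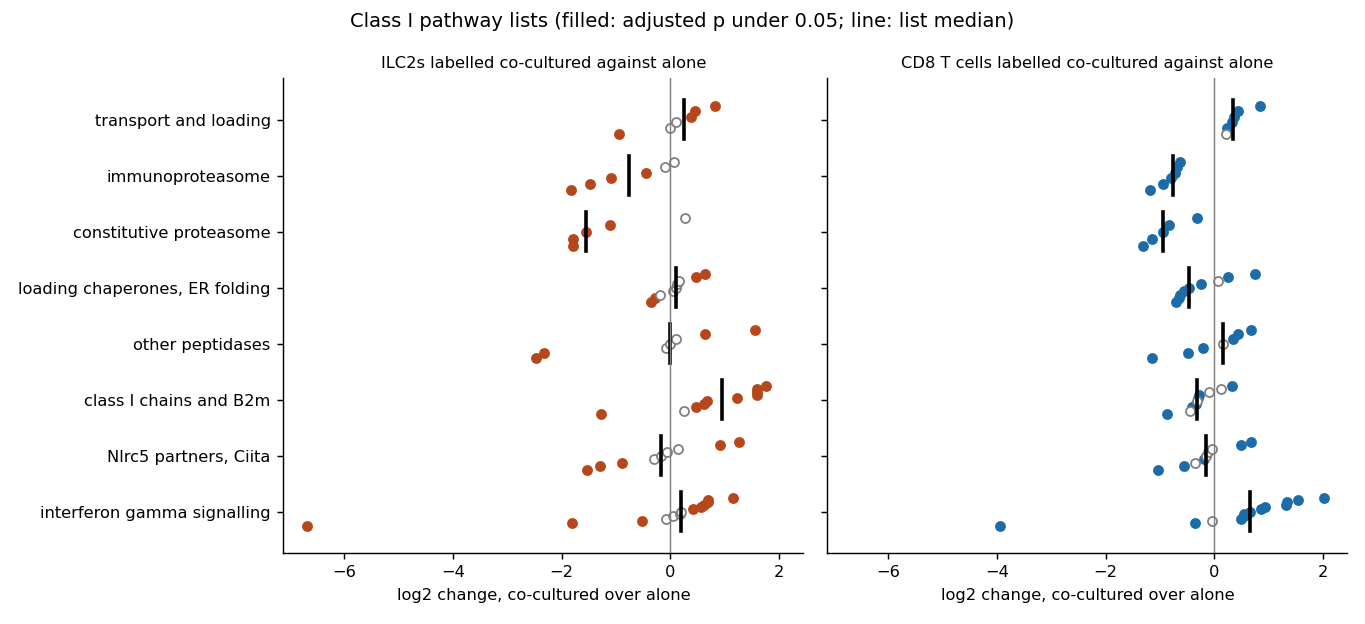
Log2 change (co-cultured over alone) of every tested gene of 8 class I lists, in ILC2s on the left and CD8 T cells on the right. Filled points had an edgeR adjusted p under 0.05 and vertical lines are list medians. The transport and loading genes had a median of 0.24 in ILC2s and 0.35 in CD8 T cells, and the immunoproteasome genes -0.77 in both.

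Psmb9 and Tap1 are neighbours that point away from each other, Psmb9 on the minus strand and Tap1 on the plus strand, with 225 bases between their starts. Their 300-base windows share 275 bases, including the CCAAT box printed above. Within a library, Tap1 had 2.098 and 2.022 times the reads per kb of Psmb9 in CD8 T cells labelled co-cultured, against 1.00 and 1.05 times in CD8 T cells labelled alone. In ILC2s the ratio was 2.74 and 2.56 labelled co-cultured, against 1.79 and 2.28 labelled alone. All 4 co-cultured values stood above those of their own cell type labelled alone. Psmb8 lies between Tap1 and Tap2, and the Psmb8 to Psmb9 ratio was 2.82 ± 0.085 in ILC2s labelled co-cultured, against 3.16 ± 0.052 in ILC2s labelled alone, and 3.11 ± 0.025 in CD8 T cells labelled co-cultured, against 3.32 ± 0.040 in CD8 T cells labelled alone (SD, n = 2 each).

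Across 100 kb to each side of Tap1 and Tap2, the 11 other genes measured moved both ways. In ILC2s 4 rose and 4 fell, with a median of 0.06, and in CD8 T cells 3 rose and 6 fell, with a median of -0.41. H2-Ob, which encodes a chain of the class II regulator H2-O and is named after its values were seen, rose in both, by 1.18 in ILC2s (SE 0.175) and 1.76 in CD8 T cells (SE 0.129). Under scaling to the ILC2 markers its ILC2 value turned to -0.26.

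**Figure D5:**
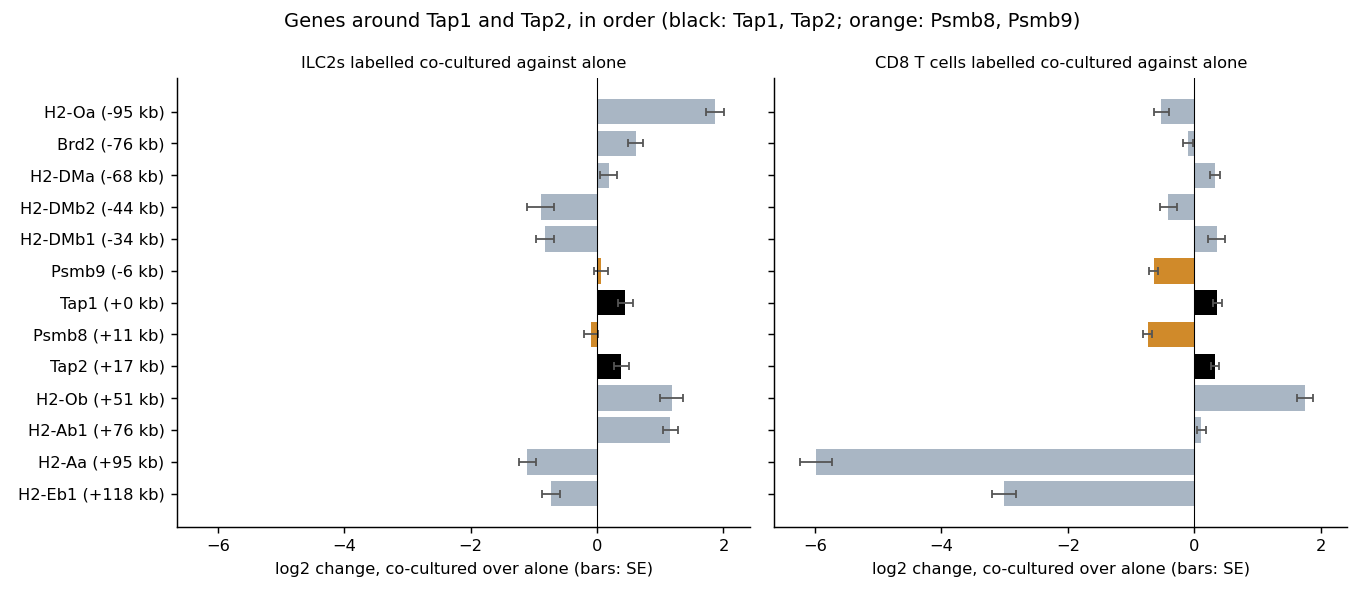
Log2 change (co-cultured over alone, bars with SE) of the genes around Tap1 and Tap2 in chromosome order, with the distance of each gene's left end from Tap1 in kb, in ILC2s on the left and CD8 T cells on the right. Tap1 and Tap2 (black) lay above 0 in both under TMM scaling (below 0 in ILC2s under scaling to the ILC2 markers), whereas Psmb8 and Psmb9 (orange) lay at -0.73 and -0.64 in CD8 T cells. H2-Aa in co-cultured CD8 T cells rests on 11 and 10 reads.

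Of 10 heavy chain and B2m genes tested, 8 rose and 1 fell in ILC2s (median 0.94), while 1 rose, 5 fell and 4 did not pass in CD8 T cells (median -0.31). The difference of the responses passed upward for 8 of the 10 and downward for 1. H2-K1, a classical heavy chain, averaged 11015 CPM in ILC2s labelled co-cultured, against 5499 CPM in ILC2s labelled alone (log2 change 1.22), and 2229 CPM in CD8 T cells labelled co-cultured, against 2681 CPM in those labelled alone (-0.35). H2-D1, also a classical chain, rose in ILC2s (1.60, but 0.16 under scaling to the ILC2 markers) and fell in CD8 T cells (-0.42). H2-Q6 (1.76 in ILC2s) is a nonclassical chain. B2m, the light chain shared by all class I molecules, averaged 4819 CPM in ILC2s labelled co-cultured, against 3630 CPM in ILC2s labelled alone (0.62), and 1305 CPM in CD8 T cells labelled co-cultured, against 2267 CPM in those labelled alone (-0.88). Under scaling to the ILC2 markers H2-K1 and B2m turned downward in ILC2s (-0.22 and -0.81). Reads shared between similar H2 genes could be assigned to the wrong one, since their counting is not given.

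Chaperones and other peptidases were mixed. Of 9 loading chaperones and folding enzymes of the endoplasmic reticulum, 2 rose, 2 fell and 5 did not pass in ILC2s (median 0.10), and 2 rose, 6 fell and 1 did not pass in CD8 T cells (median -0.46). Prkcsh led in ILC2s (0.64, and -0.79 under scaling to the ILC2 markers) and Ganab in CD8 T cells (0.75), 2 genes that encode the subunits of glucosidase II, which prepares glycoproteins for calnexin and calreticulin. Hspa5, the chaperone BiP, fell in CD8 T cells (-0.71). Of 7 other peptidases 2 rose, 2 fell and 3 did not pass in ILC2s, and 3 rose, 3 fell and 1 did not pass in CD8 T cells. The largest changes were those of Thop1 (-2.47) and Lap3 (-2.32) in ILC2s, which encode thimet oligopeptidase and a leucine aminopeptidase, and of Lap3 in CD8 T cells (-1.15).

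Among the regulators, the factors that work with NLRC5 or its class II counterpart CIITA moved both ways. Of these 9 genes, 2 rose, 3 fell and 4 did not pass in each cell type (medians -0.17 in ILC2s and -0.16 in CD8 T cells). Nfyc, a subunit of the factor that binds CCAAT boxes, fell in ILC2s (-1.53) and in CD8 T cells (-0.56). Rfxap, of the RFX complex, rose in ILC2s (1.25, and -0.18 under scaling to the ILC2 markers), and Rfx5, of the same complex, rose in CD8 T cells (0.68). Ciita fell in ILC2s, to 5.48 CPM labelled co-cultured, against 15.6 CPM labelled alone (-1.30). Its fall in CD8 T cells (-1.05) rests on 23 and 20 reads labelled co-cultured, against 44 and 25 reads labelled alone, and was lost in 8 of 12 alternatives (adjusted p from 0.0081 to 0.48).

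Ifng, the interferon gamma gene, fell in both cell types. It stood at 0.37 and 3.12 CPM in ILC2s labelled co-cultured, which are 18 and 150 reads, against 203 and 210 CPM in ILC2s labelled alone (log2 change -6.69, SE 0.493). These 2 co-cultured libraries differ, and the log2 change was -5.90 without co-cultured replicate 1 and -8.86 without co-cultured replicate 2. Ifng in CD8 T cells stood at 105.7 and 106.0 CPM labelled co-cultured, against 1591 and 1513 CPM labelled alone (-3.95, SE 0.075). Of the 13 interferon gamma signalling genes, Ifng included, 6 rose, 3 fell and 4 did not pass in ILC2s (median 0.20), while 10 rose, 2 fell and 1 did not pass in CD8 T cells (median 0.66). Ifngr1, a receptor chain, rose in both (1.15 in ILC2s, 2.01 in CD8 T cells), and so did the transcription factor gene Irf1 (0.61 and 0.54). Socs1, an inhibitor of cytokine receptor signalling, fell in both, to 81.0 CPM in ILC2s labelled co-cultured, against 331 CPM in ILC2s labelled alone (-1.82), and by 0.36 on the log2 scale in CD8 T cells. Ifngr1 and Irf1 turned downward in ILC2s under scaling to the ILC2 markers (-0.29 and -0.83).

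Exon length, merged over all annotated transcripts of a gene, moved with the change in CD8 T cells, as a description chosen after the values were seen. This length can exceed that of the transcript expressed. Genes with under 2 kb of exon had a median log2 change of -0.42 there, those of 2 to 4 kb -0.09, those of 4 to 6 kb 0.15 and those of 6 kb or more 0.25. In ILC2s the medians were -0.20, -0.25, -0.08 and 0.17. Tap2 (3781 bases of exon), Tapbp (3628) and Tapbpl (2352) fall in the class of 2 to 4 kb, where 27.7% of genes rose and 36.6% fell in CD8 T cells. Tap1 (5476 bases) falls in the next class, and Erap1 (7280) and Nlrc5 (8493) in the longest. Psmb8 (3381 bases) and Psmb9 (3660) share the class of Tap2 and Tapbp by this measure. For Psmb8 the measure exceeds the RefSeq gene, which runs from 34198195 to 34201454. Of the other proteasome genes named above, Psmb5, Psmb10 and Psme2 fall under 2 kb and Psmb7 in the class of 2 to 4 kb. Under 2 kb, 11.3% of genes rose and 45.1% fell in CD8 T cells. The part of length in the changes of the 6 genes was not tested.

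The genes whose profile over the 8 libraries was most like each member were named by the root mean square difference of centred log2 CPM, among 7350 genes. They were Gsr (0.056) and Man1b1 (0.064) for Tap1, Ncstn (0.056) and Fam222b (0.065) for Tap2, and Trafd1 (0.127) and Gpr183 (0.130) for Tapbp. For Tapbpl they were Nek2 (0.079) and Agfg1 (0.080), for Erap1 Kctd20 (0.081) and Rbm18 (0.086), and for Nlrc5 Slc26a2 (0.073) and Msl1 (0.111). Within the 6 genes, Tap1 and Tap2 were closest to each other (0.162), and Tapbpl was farthest from its nearest member, Erap1 (0.823). The 8 libraries share 4 groups and 2 tables, so these values only describe a likeness of pattern.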

How the data were processed

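Per the labels' protocols, RNA extracted with Trizol went into SMART-Seq v4 libraries. The authors deposited raw read counts by gene symbol in 1 table per cell type, of 18389 genes (ILC2s) and 17642 genes (CD8 T cells). Tools named in the submitters' processing notes are HISAT2 2.1.0, StringTie 2.1.3b, Trimmomatic 0.38 and SAMtools 1.9, with mm10 as the build. What each did, the annotation and the strand setting are not given, so a gene and an overlapping antisense gene cannot be told apart. No deposited count is 0, so a gene with no read in any 1 library of a table is not in that table.

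CPM were computed from library totals. Changes were tested on the counts in edgeR 4.0.16 (R 4.3.3) with its quasi-likelihood test, TMM factors and filterByExpr, within each table, and p-values were adjusted by Benjamini-Hochberg over all genes tested with a threshold of 0.05. Differences between cell types used all 8 libraries and the 15532 genes tested in both tables. Residual degrees of freedom were 2 in each cell type and 4 over all libraries, so each p-value leans heavily on variance information from the whole table. Replicate counts differed by more than sampling noise, and all 8 libraries were kept. The scripts were tested on simulated data. Alternatives were DESeq2 1.42.0, limma-voom (limma 3.58.1), library totals, upper quartile factors, scaling to marker genes, no filter, at least 50 reads in 2 libraries, replicate number as a block, a fit of all 8 libraries, and each library left out. When a left-out library leaves 1 in a group, that library is assumed to vary like the other groups.

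The members and gene lists were chosen with earlier results of these data known, and no list was tested as a set. All 6 members were named, with Ifng, Irf1, Psmb8, Psmb9, H2-K1 and B2m whatever their values, and for each other list the passed genes with the largest changes, up to 3. Some genes that this rule allows are not reported here. Likeness was ranked among genes in both tables whose log2 CPM averaged at least 4. Exon lengths came from GENCODE M21 (GRCm38), with the exons of all annotated transcripts of a gene merged. They cover 90.8% of the tested CD8 T cell genes and 91.0% of the ILC2 genes. Positions and start regions came from RefSeq GRCm38.p6, where 3 of the 6 members had a window. Summaries and plots used Python 3.11.15, pandas 2.3.3 and matplotlib 3.10.9.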

Additional observations from a re-analysis of the deposited data

Results flagged for a closer look

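Tapbpl and Erap1 were picked out because their responses to co-culture differed between the cell types in a test of the difference itself. They are 2 of the 6 genes, and 53.6% of the 15532 genes tested passed that test. For Tapbpl the ILC2 response minus the CD8 T cell response was -1.33 (SE 0.132, edgeR adjusted p = 4.4e-07). Both ILC2 libraries labelled co-cultured stood below both labelled alone, and both CD8 T cell libraries labelled co-cultured above both labelled alone. Groups did not overlap for 83.4% of all genes tested in ILC2s and 81.2% in CD8 T cells. The rise in CD8 T cells was 0.18 without CD8 co-cultured replicate 1 and turned to -0.12 under scaling to the CD8 T cell markers. For Erap1 the difference was -0.60 (SE 0.139, edgeR adjusted p = 0.0018), with a rise in CD8 T cells and a log2 change of -0.01 in ILC2s. Summed markers of CD8 T cells, stroma and macrophages were lower in the ILC2 libraries labelled co-cultured than in those labelled alone, and their part in both differences was not tested.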

How the results depend on the processing

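Of 426 values of the 6 genes under the alternatives, 388 kept their direction and side of the threshold. With the direction kept, 10 newly passed and 7 no longer passed. The other 21 turned their direction, whether or not they also crossed the threshold. The differences between the responses of the cell types for Tapbpl and Erap1, the fall of Tapbpl in ILC2s and the rise of Tapbp in CD8 T cells held in every alternative run. Under scaling to the CD8 T cell markers, members called fell to 1 (from 5) in CD8 T cells. There Tap2 stood at -0.017, Tapbpl at -0.12 and Nlrc5 at -0.14, and 10240 of the 15948 genes tested were called. With library totals, members called fell to 2 (from 4) in ILC2s, where Nlrc5 stood at -0.12 and Psmb9 at -0.15. In the difference between responses they came to 4 (from 2). Library totals called 11156 of the 16739 genes tested in ILC2s and 8611 of 15532 in the difference. Under scaling to the ILC2 markers Tap1 turned to -0.99, Tap2 to -1.05, Tapbp to -0.62, Nlrc5 to -1.34, Psmb9 to -1.37, Prkcsh to -0.79, H2-K1 to -0.22, B2m to -0.81, Rfxap to -0.18, Ifngr1 to -0.29, Irf1 to -0.83 and H2-Ob to -0.26. In that setting all 6 members were called (from 4), each lower, among 13529 genes called of the 16739 tested. Erap1 and Psmb8, below 0 in the main fit too, stood at -1.45 and -1.53. In other settings Erap1 in ILC2s was 0.025 with DESeq2, 0.031 with upper quartile factors and 0.035 with the stricter filter. It ran from -0.16 to 0.098 with 1 library left out. Leaving 1 out, Nlrc5 in ILC2s ran from -0.048 to 0.24, Psmb9 in ILC2s from -0.00022 to 0.13 and the difference between responses for Tap1 from -0.21 to 0.026. In the fit of all 8 libraries Nlrc5 was -0.055 and Psmb9 -0.093 in ILC2s. In the difference between responses Tap1 was 0.041, Tap2 0.016 and Irf1 0.029 with DESeq2, and 0.084, 0.058 and 0.069 with upper quartile factors.

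The share of calls that were higher moved to 26.1% from 49.5% in CD8 T cells and to 4.38% from 48.0% in ILC2s under marker scaling, and in the difference between responses to 29.0% with library totals and 49.4% with upper quartile factors, from 39.2%. Marker scaling moved the median of all genes to -1.44 in ILC2s and -0.35 in CD8 T cells, and library totals moved it to -0.22 in ILC2s and -0.29 in the difference. The labels give no pairing, and the deviations of same-numbered replicates correlated by 0.091 in ILC2s and 0.011 in CD8 T cells, so the numbers were not taken as pairs. With replicate number as a block the genes called were 11056 in ILC2s (11090 without), 9732 in CD8 T cells (9711) and 8457 for the difference (8324), and Nlrc5 in CD8 T cells passed (adjusted p = 0.045). With 2 libraries a group, whether Nlrc5 passed in CD8 T cells depended on the setting. Marker scaling was not run for the differences between the cell types.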
